A study of Zea mays with 8 samples.

Results

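Transcripts of 6 genes taken as 19-kDa alpha zeins of maize (Zea mays) were followed in endosperm with and without KIL1 and KIL2. The genes were chosen by ID and lie at 3 loci. On chromosome 4 these are Zm00001d048848, Zm00001d048849 and Zm00001d048851, on chromosome 7 Zm00001d019155 and Zm00001d019162, and on chromosome 1 Zm00001d030855. They make up 6 of the 37965 gene IDs of the count table and 6 of the 22014 genes that were abundant enough to test. The choice was made with their counts in both genotypes already known, so their levels and differences are given as a description, with no p-value.

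The tissue came from the inbred line A188 at 19 days after pollination and was endosperm enriched for the EAS, the layer that borders the scutellum of the embryo. One group of 4 libraries carried a KIL1 KIL2 knockout, and the other group of 4 libraries was labelled wild type. The labels give neither the knockout alleles, nor the number of mutant lines, nor whether replicate libraries stand for separate plants, so the spread between libraries may be technical in part. KIL1 and KIL2 are transcription factors of the NAC family, and the study concerns their part in the elimination of endosperm.

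Zeins are the prolamin storage proteins of the maize kernel. They are made on the rough endoplasmic reticulum of starchy endosperm cells and packed into protein bodies, in which alpha zeins fill the interior and gamma and beta zeins form the outer layer. Alpha zeins come in 2 size classes, are rich in glutamine, leucine and proline and nearly devoid of lysine, and are encoded by families of tandem genes without introns. Their transcription is known to depend on the activators Opaque2 and prolamin-box binding factor.

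Library totals ran from 47143888 to 80577963 counts, and wild type replicate 2 was the deepest by a wide margin, the other wild type libraries holding 58330218 to 61613873. The table pairs no ID with a name, and 0 of the 6 IDs matched the RefSeq table used for names, so the zein identity of the genes, the tissue markers and the KIL1 and KIL2 transcripts were not checked here, and no sequence is shown. In bulk tissue, more cells of a type and more transcript per cell cannot be told apart. Levels are given as CPM, counts scaled to a common library size with TMM factors (trimmed mean of M values), and as CPM per kilobase of exon where genes are compared with each other.

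In structure the 6 genes were alike. All were on the plus strand with an uninterrupted exon, 702 to 845 bases long in the A188 annotation. On chromosome 4, Zm00001d048848 spanned 5750087 to 5750791, Zm00001d048849 spanned 5761857 to 5762558 and Zm00001d048851 spanned 5770734 to 5771438, with gaps of 11065 and 8175 bases between them. The second gap held 1 further gene, Zm00001d048850. The chromosome 7 pair lay 6970 bases apart, with Zm00001d019155 at 19890675 to 19891394 and Zm00001d019162 at 19898365 to 19899209. On chromosome 1, Zm00001d030855 stood alone at 165830827 to 165831549. The exon length was a multiple of 3 for 5 of the 6 genes, and Zm00001d019162, with 845 bases and 16 overlapping exon records, was the exception.

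All 6 transcripts were among the most abundant of the tissue in both genotypes, and each was higher in every knockout library than in any wild type library. The same held for 10.8% of all tested genes and for 58.8% of the 68 other genes with a mean of at least 1000 CPM. Together they took 3.22%, 2.48%, 2.74% and 3.25% of all counts in wild type replicates 1 to 4, and 4.58%, 4.60%, 5.38% and 4.35% in knockout replicates 1 to 4. The means were 2.92% ± 0.379 (SD, n = 4) in wild type and 4.73% ± 0.447 (SD, n = 4) in the knockout, a difference of 1.80 percentage points. The 100 most abundant genes of the tissue, which include all 6, gained 5.34 percentage points, of which the other 94 made up 3.53. Each genotype's libraries of the summed 19-kDa transcripts stood apart from the other's, with the lowest knockout library at 44637 CPM and the highest wild type library at 31797 CPM.

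**Figure D1:**
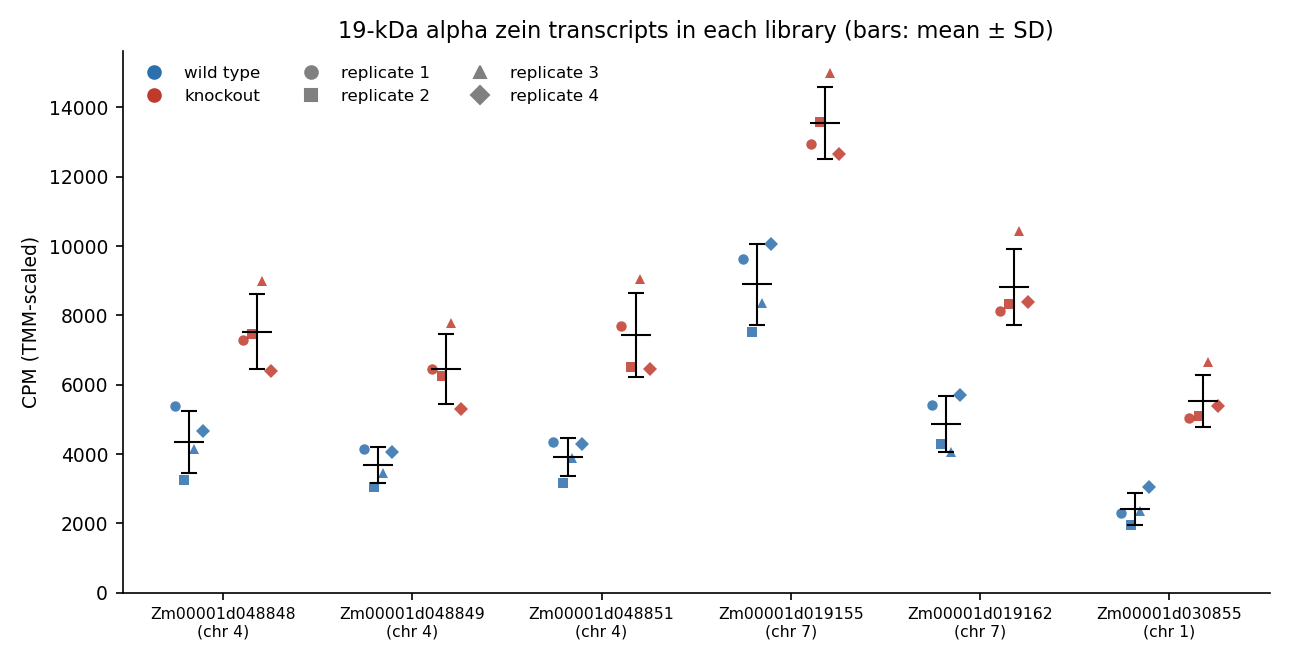
CPM of each of the 6 genes in each library, with wild type in blue, the knockout in red, a marker shape for each replicate number, and bars for the mean and SD of 4 libraries. For all 6 genes every knockout library lies above every wild type library, as for 58.8% of the 68 other genes with a mean of at least 1000 CPM. Knockout replicate 3 is the highest library for all 6 genes, and Zm00001d019155 is the most abundant of them.

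On chromosome 4, Zm00001d048848 measured 5377, 3249, 4151 and 4663.5 CPM in wild type replicates 1 to 4 and 7277, 7451, 8996 and 6406 CPM in knockout replicates 1 to 4. The highest wild type library, replicate 1, stayed below the lowest knockout library, replicate 4. The mean log2 CPM of the knockout minus that of wild type was 0.80 (SE 0.18, n = 4 and 4), or 1.74-fold.

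Its neighbour Zm00001d048849 was a little lower in every library. It measured 4139, 3050, 3444 and 4059 CPM in wild type replicates 1 to 4 and 6456, 6263, 7790 and 5307 CPM in the knockout, a log2 difference of 0.81 (SE 0.15). Zm00001d048851 had 4361, 3158, 3891 and 4277 CPM in wild type and 7691, 6514, 9058 and 6467 CPM in the knockout, a log2 difference of 0.92 (SE 0.16). For all 3 genes wild type replicate 2 was the lowest library and knockout replicate 3 the highest. Each kept a steady part of the locus: Zm00001d048848 held 36.3% ± 1.82 of the locus' counts in wild type and 35.2% ± 1.20 in the knockout, Zm00001d048849 30.8% ± 1.14 and 30.1% ± 0.724, and Zm00001d048851 32.9% ± 1.06 and 34.7% ± 1.69 (SD, n = 4 each).

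The chromosome 7 locus held the most abundant of the 6 genes. Zm00001d019155 measured 9641, 7520.5, 8360 and 10051 CPM in wild type replicates 1 to 4 and 12941, 13575, 14983 and 12667 CPM in the knockout, and ranked 4 to 6 among all genes by count in the 8 libraries. Its log2 difference, 0.61 (SE 0.11), was the smallest of the 6. Its partner Zm00001d019162 measured 5418, 4290, 4066 and 5704 CPM in wild type and 8115, 8330, 10440 and 8394 CPM in the knockout, with a log2 difference of 0.86 (SE 0.15). The 2 genes of the pair did not keep a fixed proportion: Zm00001d019162 took 35.3% ± 1.73 of the pair's counts in wild type and 39.4% ± 1.37 in the knockout (SD, n = 4 each). The log2 ratio of Zm00001d019155 to Zm00001d019162 was 0.25 lower in the knockout (difference -0.25, SE 0.069), and its libraries did not overlap between the genotypes. Such a lack of overlap was common, at 54.1% of pairs of other genes with a mean of at least 1000 CPM.

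Both chromosome 7 genes lie opposite another gene model, and this bears on their counts. Zm00001d019156, on the minus strand at 19890766 to 19901150, shares 143 exon bases with Zm00001d019155 (19.9% of its exon) and 220 with Zm00001d019162 (26.0%). The counting set no strand option, so reads touching exons of both models were not counted for either, and reads of the 2 strands cannot be told apart. The level of Zm00001d019156 varied widely, at 106, 64.5, 29.3 and 603 CPM in wild type replicates 1 to 4 and 258, 54.7, 72.2 and 54.9 CPM in knockout replicates 1 to 4. Its 2 high libraries, wild type replicate 4 and knockout replicate 1, belong to different genotypes, and its difference did not pass the test (log2 change -0.87, SE 0.82, edgeR adjusted p = 0.513). In knockout replicate 1 both chromosome 7 zeins were below their group's mean, and in wild type replicate 4 both were the highest of their group. The part of this overlap in the differences of the zein genes was not tested.

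On chromosome 1, Zm00001d030855 had the lowest CPM of the 6 genes in 7 of 8 libraries and the largest difference between genotypes. In knockout replicate 4 Zm00001d048849 was lower. Zm00001d030855 measured 2292, 1958, 2372 and 3044 CPM in wild type replicates 1 to 4 and 5053, 5087, 6643.5 and 5394 CPM in knockout replicates 1 to 4. Wild type replicate 4 was the highest of its group, and replicate 2 the lowest. The log2 difference was 1.21 (SE 0.16), or 2.31-fold. By count it ranked between 23 and 31 among all genes in wild type libraries and between 13 and 17 in the knockout.

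Per kilobase of exon the order of the 6 genes was fixed at its ends and mixed in between. Zm00001d019155 came first in all 8 libraries, at 12351 ± 1617 CPM per kilobase in wild type and 18808 ± 1436 in the knockout (SD, n = 4 each), and Zm00001d030855 came last, at 3342 ± 629 and 7668.5 ± 1036. The means of the other 4 lay between 5232 and 6185 CPM per kilobase in wild type and between 9194 and 10685 in the knockout. Their order changed from library to library. Within the chromosome 4 locus, Zm00001d048849 was below Zm00001d048848 and Zm00001d048851 in all 8 libraries. Over the exon bases that no other gene model shares, the wild type level of Zm00001d019155 became 15413 ± 2018 CPM per kilobase and that of Zm00001d019162 became 7791 ± 1299, which put the mean of Zm00001d019162 above those of the chromosome 4 genes.

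The 3 loci were next compared as sums. The chromosome 4 locus summed to 11955 ± 1936 CPM in wild type and 21419 ± 3239 in the knockout (SD, n = 4 each). The chromosome 7 locus summed to 13762 ± 1936 and 22361 ± 2080 CPM, and the chromosome 1 gene measured 2416.5 ± 455 and 5544 ± 749 CPM. On the log2 scale the differences were 0.84 (SE 0.16), 0.71 (SE 0.12) and 1.21 (SE 0.16). The deepest library, wild type replicate 2, was also the lowest for all 3 loci, and without it these differences were 0.74, 0.64 and 1.12. Without knockout replicate 3, the highest for all 3 loci, they were 0.75, 0.64 and 1.12.

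Ratios of loci within a library do not depend on how the libraries are scaled. The count of the chromosome 1 gene was 0.165, 0.207, 0.206 and 0.234 times that of the chromosome 4 locus in wild type replicates 1 to 4, and 0.236, 0.251, 0.257 and 0.297 times in knockout replicates 1 to 4. The groups came within a narrow margin of each other, between wild type replicate 4 and knockout replicate 1. The log2 ratio was higher in the knockout by 0.36 (SE 0.13), and by 0.27 to 0.43 when each library was left out.

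Against the chromosome 7 locus the chromosome 1 gene stood further apart. Its count was 0.152, 0.166, 0.191 and 0.193 times that of the chromosome 7 locus in wild type and 0.240, 0.232, 0.261 and 0.256 times in the knockout, a log2 difference of 0.50 (SE 0.092). The 2 larger loci overlapped: the ratio of chromosome 7 to chromosome 4 was 1.09, 1.25, 1.08 and 1.21 in wild type and 0.983, 1.08, 0.984 and 1.16 in the knockout, a log2 difference of -0.14 (SE 0.079). Between libraries of the same replicate number this ratio was higher in the knockout for 0 of 4, though the labels do not state that the numbers are pairs.

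**Figure D2:**
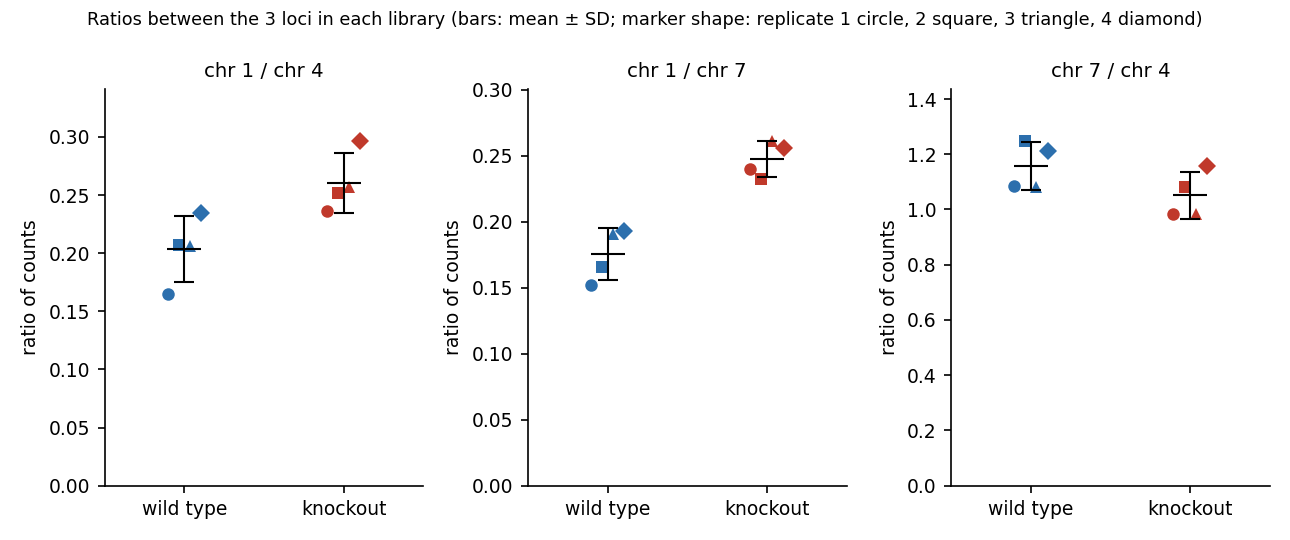
Ratios of counts between loci in each library (vertical axes from 0), with wild type in blue, the knockout in red, and bars for the mean and SD of 4 libraries. The ratios of chromosome 1 to either other locus are higher in all 4 knockout libraries, with little room between the groups for chromosome 4, and the ratio of chromosome 7 to chromosome 4 overlaps.

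As parts of the summed counts of the 6 genes, chromosome 4 held 42.4% ± 1.91 in wild type and 43.3% ± 1.98 in the knockout, chromosome 7 held 49.0% ± 1.56 and 45.4% ± 1.59, and chromosome 1 held 8.59% ± 0.956 and 11.2% ± 0.673 (SD, n = 4 each). The share of chromosome 4 overlapped between the genotypes. Among the 15 possible pairs of the 6 genes, the ratio did not overlap between genotypes for 6, of which 4 of 5 were pairs with the chromosome 1 gene, 1 of 4 a pair within a locus and 1 of 6 a pair across chromosomes 4 and 7. Among pairs of other genes with a mean of at least 1000 CPM the ratio did not overlap for 54.1%, so a shift in proportion between abundant transcripts was common in these libraries.

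Differences between libraries of one genotype were shared by all 6 genes in some libraries and not in others. In knockout replicate 3 all 6 were above the group's mean log2 CPM, by 0.15 to 0.30, and in knockout replicate 4 all 6 were below it, at -0.27 to -0.030. In wild type replicate 4 all 6 were above the mean by 0.12 to 0.35, and in wild type replicate 2 all 6 were below it, at -0.40 to -0.17. The remaining libraries were mixed. Of the 6 genes, 2 were above the mean in knockout replicate 1 and 1 in knockout replicate 2. In wild type replicate 1 it was 5 of the 6, and in wild type replicate 3 it was 1. Over the 8 deviations from the group means, Pearson's r ranged from 0.90 to 0.94 for the 4 pairs within a locus and from 0.63 to 0.92 for the 11 pairs across loci, given as a description, since the genes share each library's scaling and tissue sample. The lowest value, 0.63, joined Zm00001d048848 and Zm00001d030855, which went opposite ways in wild type replicate 1, at 0.33 above and -0.058 from the group's mean.

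Set against all tested genes, 6 of the 6 were called higher in the knockout (quasi-likelihood test of edgeR, threshold 0.05 after Benjamini-Hochberg adjustment) and 0 lower, where 8.51% of the 22014 tested genes were called higher and 10.1% lower, 18.6% in all. Every knockout library lay above every wild type library for 6 of the 6 and for 10.8% of all tested genes. Abundance matters for this background: among the 68 other genes with a mean of at least 1000 CPM, 52.9% were called higher and 1.47% lower, and 58.8% had all knockout libraries above all wild type libraries. The cut of 1000 CPM is on the mean of both genotypes, so a gene could pass it through the genotype where it was higher. Nothing is read from these counts, because the 6 genes were chosen with this contrast known. Their median log2 fold change from edgeR was 0.84, against 0.23 for the 68 abundant genes and -0.0033 for all tested genes. In the order of fold change among the 74 genes of at least 1000 CPM, Zm00001d030855 came 1, at 1.20 (SE 0.13). Zm00001d050032, named after its value was seen, stood close to it at 1.16 (SE 0.14), so first place is not settled. Zm00001d048851 came 9, Zm00001d019162 came 10, Zm00001d048849 came 13, Zm00001d048848 came 14 and Zm00001d019155 came 18.

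**Figure D3:**
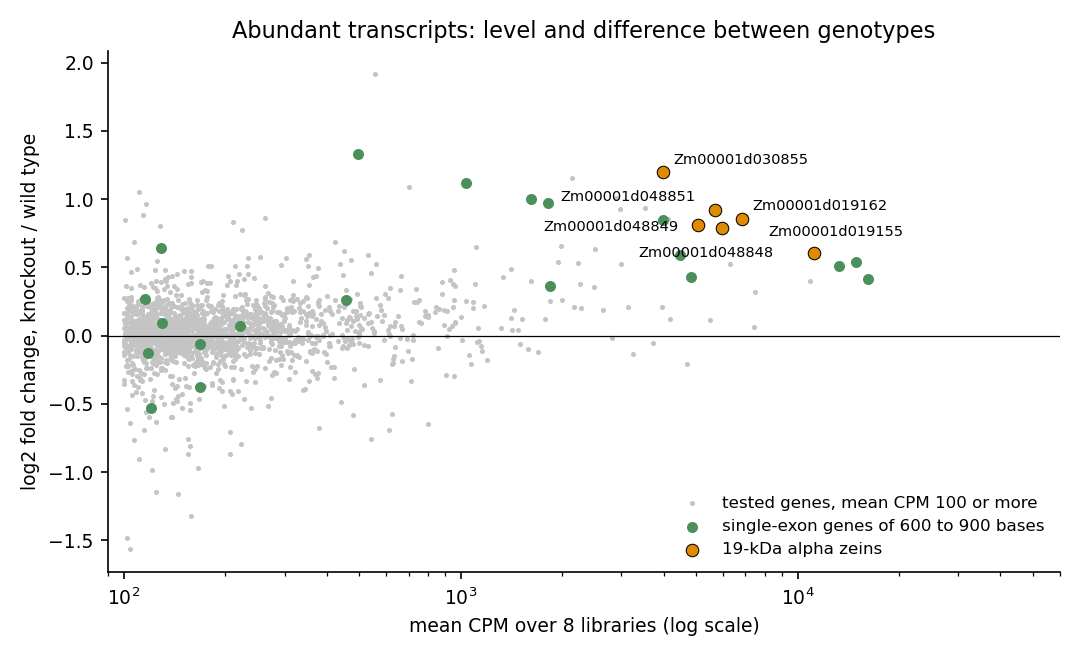
Log2 fold change of the knockout against wild type (vertical axis) by mean CPM over 8 libraries (horizontal, log scale) for tested genes of at least 100 CPM, with the 6 zein genes in orange and other single-exon genes of 600 to 900 bases in green. The 6 zein genes lie between 0.61 and 1.20 in the abundant range, where most other genes are also above 0.

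The members share their form with a small class of other abundant transcripts. Leaving out the 6 zein genes, 20 tested genes had a single exon of 600 to 900 bases and a mean of at least 100 CPM. Of these, 12 rose in the knockout, 2 fell and 6 did not pass the test, with a median log2 fold change of 0.42. Of all 1907 genes of at least 100 CPM other than the members 15.8% rose and 8.02% fell, with a median of 0.034, but the class leans to high levels. Of its 10 genes of at least 1000 CPM, 9 rose and 0 fell, at a median of 0.57, where all 68 such genes, these 10 included, had a median of 0.23 and the 52.9% given above. Of its 10 genes below 1000 CPM, 3 rose and 2 fell, at a median of 0.082. The cut is on the mean of both genotypes. Zm00001d037436, named after its value was seen, is among the 9 that rose and passed the cut only through the knockout. It measured 654 ± 76.7 CPM in wild type and 1422 ± 119 in the knockout. The 12 that rose include 3 neighbours of the chromosome 4 locus. The most abundant of the class, named after its value was seen, was Zm00001d020592 on chromosome 7, at 13901 ± 934 CPM in wild type and 18499 ± 2244 in the knockout (log2 fold change 0.41 with an SE of 0.090, edgeR adjusted p = 0.009). In fold change the class ran from -0.53 for Zm00001d026632 to 1.33 for Zm00001d048806, which were picked for these values. The IDs of the class carry no names, so it is a class by structure and level only.

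Genes around the loci were taken by position alone, within 250 kb. At the chromosome 4 locus 12 of 21 neighbours were tested, 4 rose and 1 fell. The 3 most abundant of them lie on the plus strand and fall in the short single-exon class. Zm00001d048850 and Zm00001d048852 lie next to members, and Zm00001d048847 lies further away. Zm00001d048850, which lies between Zm00001d048849 and Zm00001d048851, measured 2853 ± 356 CPM in wild type and 5137 ± 865 in the knockout (log2 change 0.85, SE 0.12, edgeR adjusted p = 0.000918). Zm00001d048852 (5775196 to 5775900) measured 1228 ± 208 and 2409 ± 627 CPM (0.97, SE 0.17, edgeR adjusted p = 0.00309), and Zm00001d048847 (5709652 to 5710455) measured 1082 ± 247 and 2161 ± 342 CPM (1.00, SE 0.16, edgeR adjusted p = 0.00145). Sequences were not compared, and Zm00001d048847 is longer than the others, with 804 bases of exon. Since abundant genes of this stretch were known to differ, their calls are not independent evidence. Of the 68 genes of at least 1000 CPM other than the members, these 3 included, 52.9% rose. The fourth neighbour that rose, Zm00001d048856, named after its value was seen, is a gene with 11 exons at 54.6 ± 3.93 CPM in wild type and 65.2 ± 2.39 in the knockout (0.26, SE 0.058, edgeR adjusted p = 0.0108). Adding the 3 short neighbours to the chromosome 4 sum left the chromosome 1 gene higher relative to it by 0.34 on the log2 scale.

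The other loci had no abundant short neighbours that rose. At chromosome 7, 6 of 8 neighbours were tested, 0 rose and 1 fell. The most abundant, Zm00001d019164, measured 165 ± 4.67 CPM in wild type and 180 ± 5.47 in the knockout and did not pass the test (0.13, SE 0.045, edgeR adjusted p = 0.0683). Zm00001d019160, at 847 bases close in length to Zm00001d019162, measured 86.3, 84.5, 67.3 and 93.1 CPM in wild type replicates 1 to 4 and 64.1, 67.6, 243 and 72.7 CPM in the knockout. Its only high library was knockout replicate 3, also the highest for all 6 zein genes, and its difference did not pass the test (0.43, SE 0.38, edgeR adjusted p = 0.470).

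At chromosome 1, 5 of 6 neighbours were tested, 0 rose and 1 fell. The one that fell was Zm00001d030858, a single-exon gene of 843 bases, from 11.9 ± 2.26 CPM in wild type to 6.38 ± 1.46 in the knockout (log2 change -0.89, SE 0.17, edgeR adjusted p = 0.00401). Zm00001d030849, at 7.88 ± 0.383 and 8.40 ± 0.482 CPM, and Zm00001d030846, at 5.30 ± 0.244 and 5.72 ± 0.409 CPM, did not pass the test (edgeR adjusted p = 0.448 and 0.442). Over all 3 loci 4 of the 23 tested neighbours rose and 3 fell, with a median log2 fold change of 0.0024. Of all 22014 tested genes 8.51% rose and 10.1% fell, at a median of -0.0033.

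**Figure D4:**
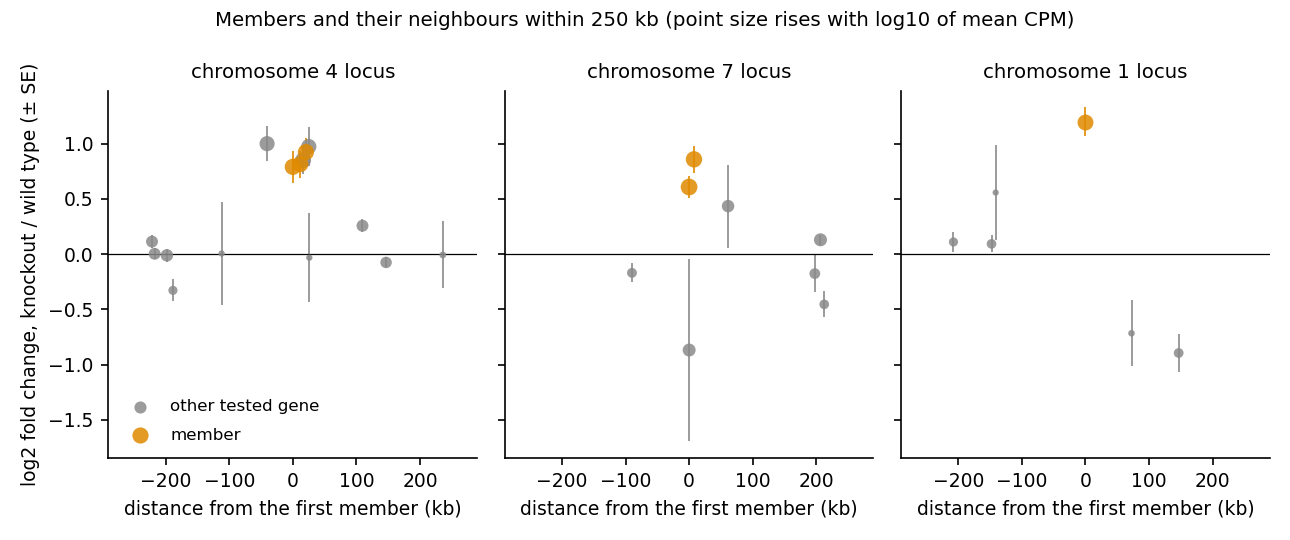
Log2 fold change from edgeR with its SE (vertical axis) against distance from the first member of each locus in kb (horizontal axis), for members in orange and other tested genes within 250 kb in grey, with point size rising with abundance. At chromosome 4 the members and 3 abundant neighbours lie together between 0.79 and 1.00, and at chromosomes 7 and 1 the members stand above neighbours of low level.

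The transcripts whose pattern over the 8 libraries was most like the mean of the 6 zein genes were found among 1907 genes of at least 100 CPM. Closest was Zm00001d018971 (chromosome 7, 11368765 to 11371617, 6 exons), with Pearson's r of 0.99 over the 8 libraries and 0.96 over deviations from the group means. It measured 249, 219, 227 and 269 CPM in wild type replicates 1 to 4 and 342, 339, 384 and 316 CPM in the knockout, so that its highest and lowest libraries, knockout replicate 3 and wild type replicate 2, were also those of the summed zein genes. It rose in the knockout (log2 change 0.52, SE 0.077, edgeR adjusted p = 0.0011). The next were Zm00001d032535 on chromosome 1, with r of 0.99 and 0.94 and a log2 fold change of 0.84 (SE 0.10, edgeR adjusted p = 0.000412), and Zm00001d043986 on chromosome 3, with r of 0.99 and 0.94 and a log2 fold change of 0.51 (SE 0.067, edgeR adjusted p = 0.000533). Such values were common: r was above 0.9 for 241 of the 1907 genes, and for 161 over the deviations. The pattern of the zein genes separates the genotypes, so a gene picked for likeness to it over the 8 libraries differs between them by choice. The changes and adjusted p-values of these 3 genes are therefore no separate evidence. Over the deviations they ranked 36, 58 and 62.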

How the data were processed

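The deposited values are raw counts of reads by gene, made by the authors with featureCounts 2.0.1 on an A188 annotation per the file headers, with no option for strand, read pairs or multi-mapping reads. Trimmomatic 0.39 and HISAT2 are named in the submitters' processing notes. Reads with several alignments or several genes were thus left out, and counts of near-identical zein copies depend on reads that align to one place. In the counted libraries the lowest count of a member was 137851. With each count taken as an independent read, the counting error of a member is at most 0.269%, far below the spread between libraries. Members, lists and tests were chosen with earlier results of these data known. The counts were tested with edgeR 4.0.16 in R 4.3.3 (filterByExpr, TMM, quasi-likelihood test, knockout against wild type, Benjamini-Hochberg over 22014 genes). The fit was tested on simulated data. Differences of members and loci are means of log2 CPM with SE from both groups' SDs. Alternatives used DESeq2 1.42.0, limma 3.58.1, other scalings and filters, and left out each library. Genes named are the 6 members, the 3 most abundant neighbours of each locus and the 3 most alike in pattern, with others marked as chosen after their values were seen. Gene lists planned by symbol, the marker check and the sequence search were not run, since 0 of 37965 IDs matched the RefSeq table (Zm-B73-REFERENCE-NAM-5.0). Single-exon genes are those whose exon records merge into one block.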

Additional observations from a re-analysis of the deposited data

Results flagged for a closer look

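Libraries far from the other 3 of their group were found in 6 of 64 sets of 4 values, where chance gives about 1 in 20 for independent sets. The sets come from the same libraries and are not independent, so no excess over chance is read from this. Knockout replicate 3 had 10440 CPM of Zm00001d019162, against 8115 to 8394 in the other knockout libraries, 243 CPM of its neighbour Zm00001d019160, against 64.1 to 72.7, and 325 CPM of Zm00001d032535, against 250.04 to 256. Zm00001d019156, the model opposite both chromosome 7 genes, had 258 CPM in knockout replicate 1, against 54.7 to 72.2, and 603 CPM in wild type replicate 4, against 29.3 to 106. Wild type replicate 2 held 80577963 counts, against 58330218 to 61613873.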

How the results depend on the processing

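The 6 zein genes were called higher in all 18 alternatives to the fit, and each kept a log2 difference above 0 under every scaling and without each library. Those differences ran from 0.54 to 0.68 for Zm00001d019155, 0.67 to 0.91 for Zm00001d048848, 0.72 to 0.90 for Zm00001d048849, 0.82 to 0.98 for Zm00001d048851, 0.78 to 0.95 for Zm00001d019162 and 1.12 to 1.33 for Zm00001d030855 when each library was left out. Library totals in place of TMM factors moved the median of all genes by -0.12 on the log2 scale and the loci to 0.73, 0.59 and 1.09 (chromosomes 4, 7 and 1). The count of changed genes was 4086, and 2783 to 4012 without each library. With the replicate number as a block it was 3000, and 6 members were called. Over all tested genes the deviations of libraries with one number correlated at 0.11, 0.10, -0.04 and -0.12, so the numbers were not taken as pairs. Taken as pairs, the summed zein genes had an SE of 0.16 in place of 0.14. The ratios between loci had smaller ones. These were 0.052 in place of 0.13 for chromosome 1 over 4, 0.055 in place of 0.092 for 1 over 7 and 0.029 in place of 0.079 for 7 over 4. Whether the numbers are pairs is not stated by the labels. The differences between loci kept their direction in all alternatives run: 0.27 to 0.43 for chromosome 1 over 4, 0.43 to 0.55 for chromosome 1 over 7 and -0.19 to -0.10 for chromosome 7 over 4 without each library. The difference in the share of chromosome 4 among the 6 genes was 0.883 percentage points and 0.298 to 1.75 without each library. Levels per kilobase over exon bases that no other model shares, an alternative chosen after seeing the data, were 15413 in place of 12351 for Zm00001d019155 in wild type and 7791 in place of 5763 for Zm00001d019162. Counting error, at most 0.269% for a member with each count taken as an independent read, does not limit these values. How reads of similar copies were placed was not tested.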
